A study of Mus musculus with 8 samples.

Results

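The genes described here encode 7 subunits of the GABA-A receptor: Gabrg1, Gabra2, Gabra4 and Gabrb1 on mouse chromosome 5, Gabrg3 and Gabra5 on chromosome 7, and Gabrb2 on chromosome 11. They are 7 of the 21631 protein-coding genes on chromosomes 1 to 19 and X. Their peaks were those with a summit in the gene or within 5 kb of either end in mm10 coordinates. The values come from ATAC-seq, in which the transposase Tn5 cuts accessible chromatin. A peak is a position where the peak caller found more fragments than in the background.

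The material was amygdala neurons of male C57BL/6J mice, separated by a magnetic kit for adult neurons (Miltenyi MACS). In the control group, sgRosa (n = 4 libraries), an AAV carried a guide against the Rosa26 locus. In the other group, sgNr2f2 (n = 4 libraries), the guide was against Nr2f2, which encodes the orphan nuclear receptor COUP-TFII. Guides were expressed for more than 2 weeks, and all 8 mice then had 7 days of tube restraint, fear conditioning on 1 day and extinction training on 3 days, so no unstressed group enters. For the age of the mice, the source of the nuclease and the promoter that drove the guide, nothing is given in the sources used here. Fewer cells of a type and less accessibility per cell cannot be told apart in these bulk libraries.

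GABA-A receptors are chloride channels made of 5 subunits and carry most fast inhibition in the forebrain. A typical receptor joins α and β subunits, between which GABA binds, with a γ subunit, and benzodiazepines bind between α and γ. In the amygdala, α2 is known from synaptic inhibition and α5 largely from tonic inhibition outside synapses. Many subunit genes lie in clusters that bring together genes of different subunit classes.

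The sequences before 5 of the start sites are shown first because they include the densest and the sparsest in CpG, the adjoining starts of Gabra4 and Gabrb1, and the starts nearest to a peak in the equal-length lists. Each is the 250 bases before a RefSeq start site (GRCm38.p6, the assembly of mm10), 5′ to 3′ on the strand of the gene, with CpG dinucleotides in capitals. Gabrb2 is represented by the one of its 3 start sites that had the nearest peaks.
Gabrg1, chr5:70842618-70842867, minus strand: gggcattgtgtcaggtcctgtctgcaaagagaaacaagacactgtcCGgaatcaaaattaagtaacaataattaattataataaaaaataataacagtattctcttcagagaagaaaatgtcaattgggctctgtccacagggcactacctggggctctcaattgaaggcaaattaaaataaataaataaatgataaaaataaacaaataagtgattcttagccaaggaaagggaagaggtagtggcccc
Gabra2, chr5:71095850-71096099, minus strand: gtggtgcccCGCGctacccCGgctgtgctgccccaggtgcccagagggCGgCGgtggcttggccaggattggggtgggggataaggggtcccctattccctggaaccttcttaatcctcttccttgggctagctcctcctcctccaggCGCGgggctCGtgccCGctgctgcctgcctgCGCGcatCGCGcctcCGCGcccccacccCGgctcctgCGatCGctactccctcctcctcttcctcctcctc
Gabra4, chr5:71658309-71658558, minus strand: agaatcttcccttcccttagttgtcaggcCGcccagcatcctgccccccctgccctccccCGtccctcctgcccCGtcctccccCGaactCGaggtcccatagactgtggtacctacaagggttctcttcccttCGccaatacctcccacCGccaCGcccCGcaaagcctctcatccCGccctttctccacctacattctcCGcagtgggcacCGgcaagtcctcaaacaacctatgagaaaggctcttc
Gabrb1, chr5:71657671-71657920, plus strand: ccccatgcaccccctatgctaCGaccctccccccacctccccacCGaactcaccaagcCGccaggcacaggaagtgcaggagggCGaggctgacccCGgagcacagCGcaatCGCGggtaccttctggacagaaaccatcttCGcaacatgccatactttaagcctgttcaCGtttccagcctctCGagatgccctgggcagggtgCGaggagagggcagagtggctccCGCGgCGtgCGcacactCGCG
Gabrb2, chr11:42420951-42421200, plus strand: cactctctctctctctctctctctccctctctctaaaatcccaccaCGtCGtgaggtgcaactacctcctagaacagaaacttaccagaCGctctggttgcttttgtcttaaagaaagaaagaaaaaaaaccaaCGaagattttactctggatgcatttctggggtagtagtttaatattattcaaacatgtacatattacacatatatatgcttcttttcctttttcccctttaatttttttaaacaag

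All 7 genes matched the promoter table, with 10 start sites in all. In windows of 300 bases (250 before and 50 after the start), Gabra2 and the upstream start site of Gabrb1 held 25 CpGs each, Gabra4 held 12, the shown Gabrb2 start site held 9 and Gabrg1 held 3, where the median of 32851 promoter windows was 7. Gabra2 and Gabrb1 thus have CpG-rich starts and Gabrg1 an AT-rich one with a GC content of 38.3%. The start sites of Gabra4 and Gabrb1 are 387 bp apart on opposite strands, each inside the annotated body of the other gene. The core motif of nuclear receptors, AGGTCA, searched on both strands, was in 0 of the 10 member windows and in 16.3% of all promoter windows of that length. These letters say nothing of binding elsewhere.

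The lists held 53864 to 143405 peaks per library on chromosomes 1 to 19 and X. Lists of equal length, cut at the 53864 peaks with the highest −log10 p per library, were used unless the full lists are named. Read depth is unknown. Of these peaks 5.57% to 21.9% per library had a deposited q under 0.05, so most peaks were weak. Among cell type markers, a peak within 1 kb of a gene end was found in 18.8% of neuron marker and library pairs, 4.17% for GABAergic and for glutamatergic neurons, 5.0% for oligodendrocytes, 10% for astrocytes and 12.5% for microglia and for vascular cells, against 9.70% over all protein-coding genes. The neuron marker Snap25 and the GABAergic markers Gad2 and Slc32a1 had no such peak in any library.

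No peak in any full list overlapped any of the 10 promoter windows of the subunit genes. The share of all promoter windows overlapped by a peak was not computed. Within 1 kb of a start site, the equal-length lists had a summit in 3 of 80 pairs of start site and library, or 3.75%, compared with 5.58% over all start sites of the table. The 3 summits were all in sgNr2f2 libraries. Of these, 2 lay in Gabrb2, which encodes the β2 subunit common in adult forebrain, 608 bp past the shown start site in sgNr2f2 3 (11, 42421707 to 42421910) and 859 bp past it in sgNr2f2 1 (42422001 to 42422155). They did not overlap, and their fold enrichments were 3.06 and 3.19. The other was 438 bp past the start of Gabra2 in sgNr2f2 2, with a fold of 2.77. The full lists added 1 summit, 378 bp past the start site of Gabra5 in sgRosa 4.

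The 7 genes with their 5 kb margins held 350 peaks over the 8 equal-length lists, of which 98.0% had the summit inside the gene. The summits were spread along the genes rather than gathered at the start. When each gene was divided into 3 equal parts from its start, 113, 120 and 110 peaks fell in the successive parts, with 5 before the start and 2 past the end. The start is here the edge of the annotated gene. In Gabra5 that edge is 57591016, far before the start site of the promoter table (57510059). The drawing of peak positions shows this spread for each gene and library.

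**Figure D1:**
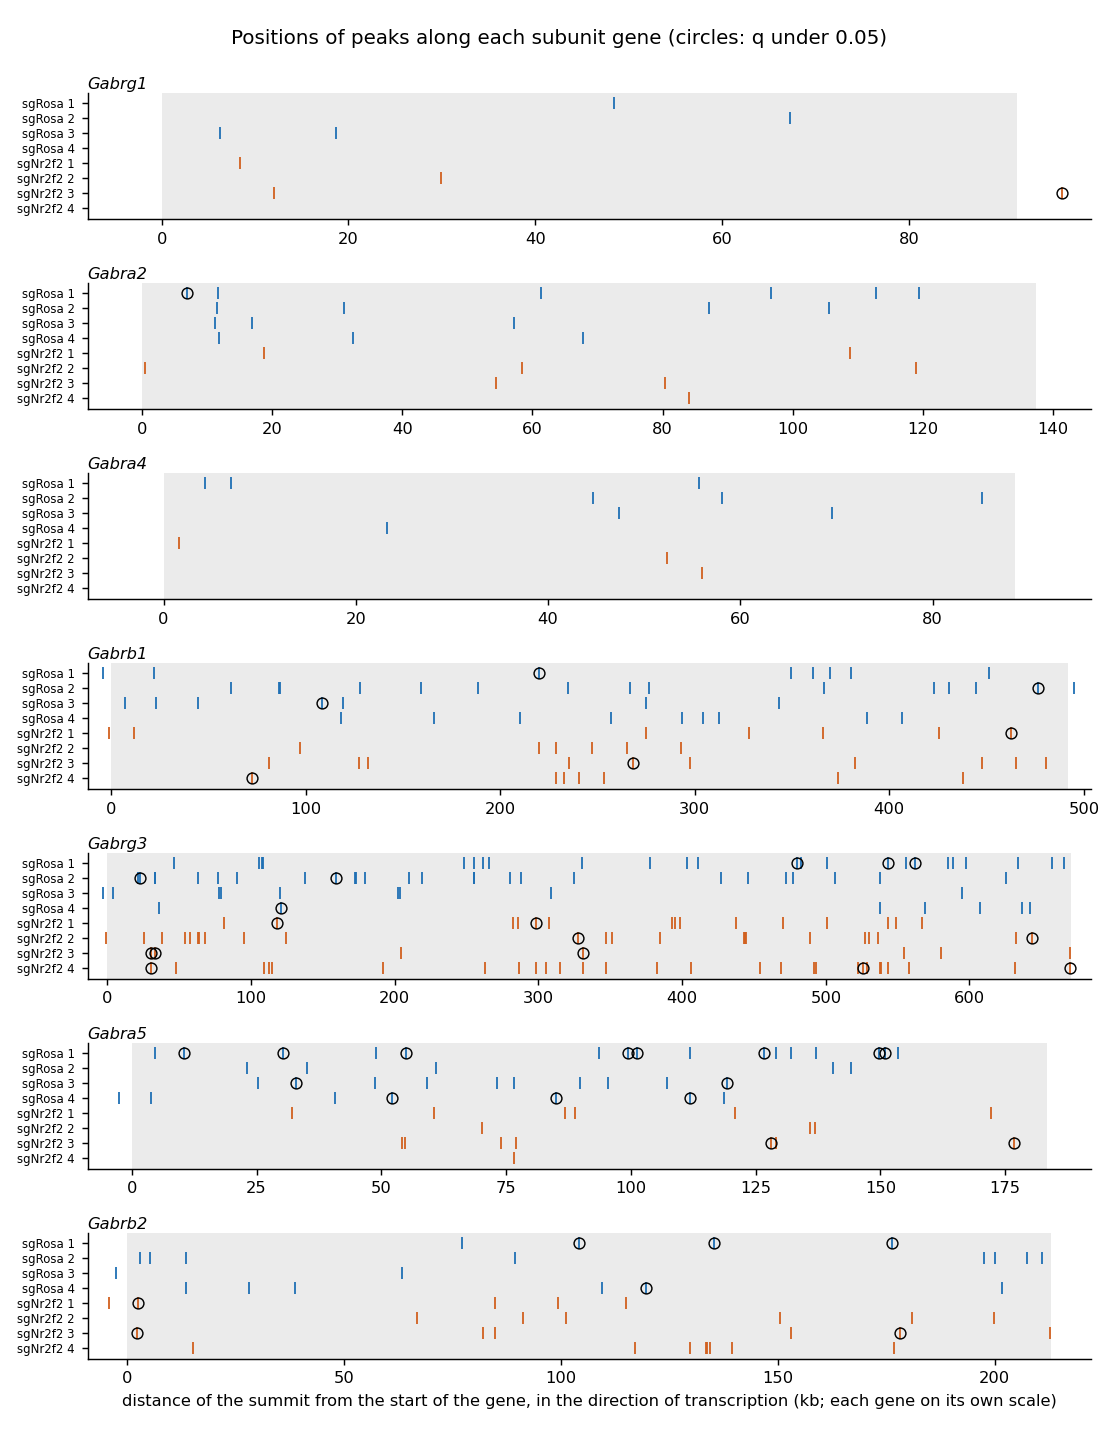
Peak summits along each subunit gene in the lists of equal length, 1 row of ticks per library (blue sgRosa, orange sgNr2f2), against the distance from the start of the gene in kb, with the gene body in grey and circles around the 46 summits with q under 0.05. Summits lie along the whole length of the genes, and few columns of ticks line up between libraries.

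The α subunit genes were described first. Gabra2 (gene ID 14395, chromosome 5, 70958392 to 71095849, minus strand) held 6, 4, 3 and 3 peaks in the sgRosa mice, in the order of their numbers from 1 to 4, and 2, 3, 2 and 1 in the sgNr2f2 mice. The groups shared the value of 3 and so overlapped. The means were 4.0 ± 1.41 and 2.0 ± 0.816 (n = 4 each, SD), and the difference gave a two-sided exact permutation p of 0.0857. In the full lists the counts were 8, 4, 3 and 7 against 5, 5, 3 and 1, which overlap more widely. Each sgRosa library had a summit between 11.2 and 11.8 kb past the start of Gabra2, inside the gene, a feature picked after its values were seen. These intervals were 71084154 to 71084303 in sgRosa 1, 71084273 to 71084422 in sgRosa 2, 71084601 to 71084768 in sgRosa 3 and 71083884 to 71084048 in sgRosa 4, and of these the first 2 overlapped. No sgNr2f2 library had one there in the equal-length lists, but the full list of sgNr2f2 2 had a peak at 71084149 to 71084303, which overlaps that of sgRosa 1. All were weak, with −log10 p from 2.55 to 3.90. The cuts of the lists ran from a −log10 p of 2.00 in sgNr2f2 4 to 3.70 in sgRosa 4, with 3.16 in sgNr2f2 2. The sgRosa 1 peak lay on the cut of its list (2.86), where 4493 of 5754 tied peaks were kept at random. How often other stretches of this length show such a split was not computed.

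Gabra4 (14397, chromosome 5, 71569734 to 71658308, minus strand) encodes α4, a subunit of extrasynaptic receptors. It held 3, 3, 2 and 1 peaks in sgRosa and 1, 1, 1 and 0 in sgNr2f2. The groups met at the value of 1. The means were 2.25 ± 0.957 and 0.75 ± 0.5 (n = 4 each, SD; exact permutation p = 0.114), and without sgRosa 4 the groups no longer overlapped, with a difference of -1.92 peaks. How often other genes separate when a library is left out was not computed. None of the 12 peaks at Gabra4 had a q under 0.05. The peak nearest to the shared start region of Gabra4 and Gabrb1 was also its strongest, 1.60 kb into Gabra4 in sgNr2f2 1 (71656622 to 71656789, fold 2.99, −log10 p 4.67).

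Gabra5 (110886, chromosome 7, 57407669 to 57591016, minus strand) had the densest peaks of the members. It held 16, 5, 10 and 7 peaks in sgRosa and 6, 3, 7 and 1 in sgNr2f2. The highest counts were in sgRosa 1 and 3 and the lowest in sgNr2f2 4, and the groups overlapped. The means were 9.5 ± 4.80 and 4.25 ± 2.75 (n = 4 each, SD; exact permutation p = 0.143). Of its 55 peaks, 15 had a q under 0.05, or 27.3%, compared with 15.0% of all peaks in the lists. These 15 were 8 in sgRosa 1, 2 in sgRosa 3, 3 in sgRosa 4 and 2 in sgNr2f2 3, with none in the other 4 libraries. The strongest was in sgRosa 3 at 57558083 to 57558270, inside the gene, with a fold of 3.78 and −log10 p of 7.51. It lay 32.8 kb past the edge of the annotated gene, but before 57510059, the only Gabra5 start site in the promoter table. In sgRosa 1 and sgNr2f2 3, 21.9% and 21.8% of all peaks had a q under 0.05, the highest shares of the 8 libraries, and the part of this in the Gabra5 values was not tested. Of Gabra5 with its 5 kb margins, 5499 bp also belong to 1 other protein-coding gene, and 1 of the 55 peaks lay there.

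Among the β subunit genes, Gabrb1 (14400, chromosome 5, 71657921 to 72149572, plus strand) held 8, 15, 7 and 9 peaks in sgRosa and 7, 6, 10 and 7 in sgNr2f2. Only sgRosa 2 stood above the range of 6 to 10 that held the other 7 libraries. The means were 9.75 ± 3.59 and 7.5 ± 1.73 (n = 4 each, SD; exact permutation p = 0.429). Its strongest peak, in sgRosa 1, lay 220 kb past the start at 71877888 to 71878144 (fold 3.65, −log10 p 6.97). The full list of sgRosa 4, the longest list, held 39 peaks in Gabrb1, compared with 7 to 18 in the other 7 full lists.

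Gabrb2 (14401, chromosome 11, 42419515 to 42632591, plus strand) held 4, 8, 2 and 6 peaks in sgRosa and 5, 6, 6 and 8 in sgNr2f2. The ranges overlapped almost wholly. The means were 5.0 ± 2.58 and 6.25 ± 1.26 (n = 4 each, SD; exact permutation p = 0.514), and in lists of the 26932 strongest peaks the difference turned to -1.5. It had the strongest peak of all members, in sgRosa 1 at 42554633 to 42554859 in the middle of the gene, with a fold of 4.04 and −log10 p of 8.35. No other equal-length list had a peak overlapping it.

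Of the γ subunit genes, Gabrg1 (14405, chromosome 5, 70751047 to 70842617, minus strand) had the fewest peaks, with 1, 1, 2 and 0 in both groups in the order of their numbers. The means were 1.0 ± 0.816 in each group (SD, n = 4; exact permutation p = 1). Its strongest peak lay in the 5 kb margin past the end of the gene in sgNr2f2 3, 96.4 kb from the start, at 70746149 to 70746363 (fold 3.26). The γ1 subunit is found in only some brain regions, the amygdala among them.

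Gabrg3 (14407, chromosome 7, 56716463 to 57387215, minus strand), the longest member, held 24, 26, 9 and 7 peaks in sgRosa and 15, 23, 7 and 28 in sgNr2f2. Each group had libraries with 23 or more peaks and a library with 7. The means were 16.5 ± 9.88 and 18.25 ± 9.22 (n = 4 each, SD; exact permutation p = 0.8), and the sign of the difference turned without sgRosa 3 (-0.75), sgRosa 4 (-1.42) or sgNr2f2 4 (-1.5). The full lists gave -0.118 peaks after scaling to equal length. Its strongest peak was in sgRosa 2 at 57228186 to 57228385 (fold 3.59).

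None of the 7 genes had groups that did not overlap in peak number, where 1.68% of 8088 genes with at least 8 peaks did so. Every member had an adjusted p of 1 (Benjamini-Hochberg over the 8088 genes), as did all other genes. The smallest exact p that 4 against 4 libraries allow is 0.0286, and 136 genes reached it. Means were lower in sgNr2f2 for 4 members, higher for 2 and equal for 1, with a median difference of -1.5 peaks. Over all genes tested the means were lower in sgNr2f2 for 36.4% and higher for 54.4%, with a median difference of 0.25. Together the members held 61, 62, 35 and 33 peaks in sgRosa and 36, 43, 35 and 45 in sgNr2f2. The highest sums were those of sgRosa 1 and 2 and the lowest that of sgRosa 4, so the groups overlapped (47.75 ± 15.9 and 39.75 ± 4.99, n = 4 each, SD). The difference of -8 peaks became -3.58 without sgRosa 1, -3.25 without sgRosa 2, -12.25 without sgRosa 3 and -12.9 without sgRosa 4, and was -2 among peaks of the full lists with q under 0.05. The 2 peaks that lay at both Gabra4 and Gabrb1 were counted once in the sum.

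**Figure D2:**
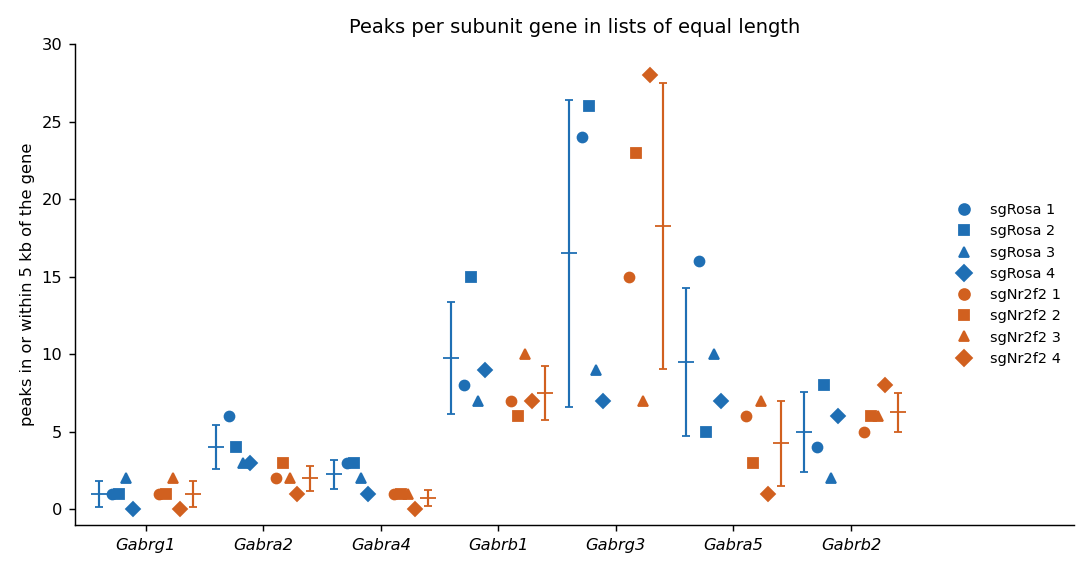
Peak number at each subunit gene, with 5 kb on either side, per library (points; blue sgRosa, orange sgNr2f2) with the mean and SD of each group beside them (n = 4). The 2 groups overlap at every gene, and Gabrg3 spreads from 7 to 28 peaks.

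A longer gene can hold more peaks, so genes were compared per Mb. Over the 8 libraries Gabra5 averaged 35.6 ± 23.7 peaks per Mb (SD, n = 8), Gabrg3 25.5 ± 13.1, Gabrb2 25.2 ± 8.95, Gabra2 20.3 ± 10.3, Gabrb1 17.2 ± 5.73, Gabra4 15.2 ± 10.8 and Gabrg1 9.85 ± 7.44. Each neighbouring pair in this order differed by less than the SD between libraries. Among the 2807 protein-coding genes at least as long as the shortest member the median was 23.0 peaks per Mb, with quartiles of 18.7 and 27.2. Gabra5 lay above the upper quartile, Gabrb1, Gabra4 and Gabrg1 below the lower one, and the other 3 between them.

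The 3 gene locations were then compared. The chromosome 5 members together averaged 16.5 ± 5.57 peaks per Mb, those on chromosome 7 27.7 ± 10.3 and Gabrb2 on chromosome 11 25.2 ± 8.95 (SD, n = 8 libraries each). Chromosome 5 was below chromosome 7 in 7 of the 8 libraries, the exception being sgNr2f2 3, with a mean difference of -11.2 ± 10.2 peaks per Mb. It was below chromosome 11 in 6 of the 8, with a mean difference of -8.68 ± 10.3, which was -1.74 in lists of the 26932 strongest peaks. Chromosome 7 was above chromosome 11 in 4 and below it in 4, and this mean difference of 2.53 ± 12.8 turned to -1.09 without sgRosa 1. Whole chromosomes differed little, at 22.1 ± 3.60, 21.7 ± 2.41 and 21.4 ± 1.86 peaks per Mb for 5, 7 and 11. In sgRosa 1 chromosome 5 had 15.0 peaks per Mb, compared with 20.5 to 26.1 in the other 7 libraries.

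Density at the genes was set against the 1 Mb on either side of each cluster, as a log2 ratio after adding 1 peak to each count. On chromosome 5 the ratio was below 0 in 7 of 8 libraries, with a mean of -0.40 ± 0.35, a density 0.760 times that of the flanks. The 2 stretches between the chromosome 5 genes, 570 kb in all, held 26.6 ± 10.3 peaks per Mb, compared with 16.5 at the genes (± SD over 8 libraries). On chromosome 7 the ratio was above 0 in 4 libraries and below in 4 (mean 0.04 ± 0.53). At Gabrb2 it was above 0 in 7 of 8 libraries, with a mean of 0.46 ± 0.52, or 1.37 times the flanks after the added peak. The added peak weighs more on the small counts at this gene than on those of its flanks. Without it, the mean densities were 25.2 peaks per Mb at Gabrb2 and 20.9 in its flanks. Gabrb2 was then below its flanks in sgRosa 1 (17.9 and 18.5) and sgRosa 4 (26.9 and 27.5), as in sgRosa 3 (8.97 and 18.5). Over the 2807 long genes the median ratio to the same kind of flanks was 0.23.

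Between groups, the log2 ratio on chromosome 5 was -0.07, 0.25, -0.39 and -0.26 in sgRosa libraries 1 to 4 and -0.68, -0.59, -0.72 and -0.71 in sgNr2f2 libraries 1 to 4. All 4 sgNr2f2 values were below all 4 sgRosa values (means -0.67 ± 0.06 and -0.12 ± 0.28, n = 4 each, SD, difference -0.56). For single genes against their own flanks, 1.66% of the 8088 genes had groups that did not overlap in this direction, and none of the 7 members was among them. The difference changed with the flank chosen, although both flanks together averaged 44.0 peaks in sgRosa and 44.75 in sgNr2f2. The flank on the side of Gabrg1 held 34, 25, 27 and 15 peaks in sgRosa and 12, 14, 22 and 12 in sgNr2f2, and against it alone the difference was 0.14. The flank past Gabrb1 held 10, 22, 19 and 24 in sgRosa and 29, 28, 40 and 22 in sgNr2f2, and against it alone the difference was -1.24. The groups overlapped in the full lists (difference -0.51), with flanks of 2 Mb (-0.74) and in lists of 26932 peaks (-0.14).

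The counts behind the chromosome 5 ratio were 17, 23, 14 and 13 peaks at the 4 genes in sgRosa and 10, 11, 15 and 8 in sgNr2f2, and the groups overlapped there. On chromosome 7 the ratio averaged 0.05 ± 0.66 in sgRosa and 0.03 ± 0.46 in sgNr2f2 (n = 4 each, SD). At Gabrb2 it averaged 0.10 ± 0.43 and 0.81 ± 0.35, with overlapping groups, and the difference of 0.71 turned to -0.98 in lists of 26932 peaks.

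**Figure D3:**
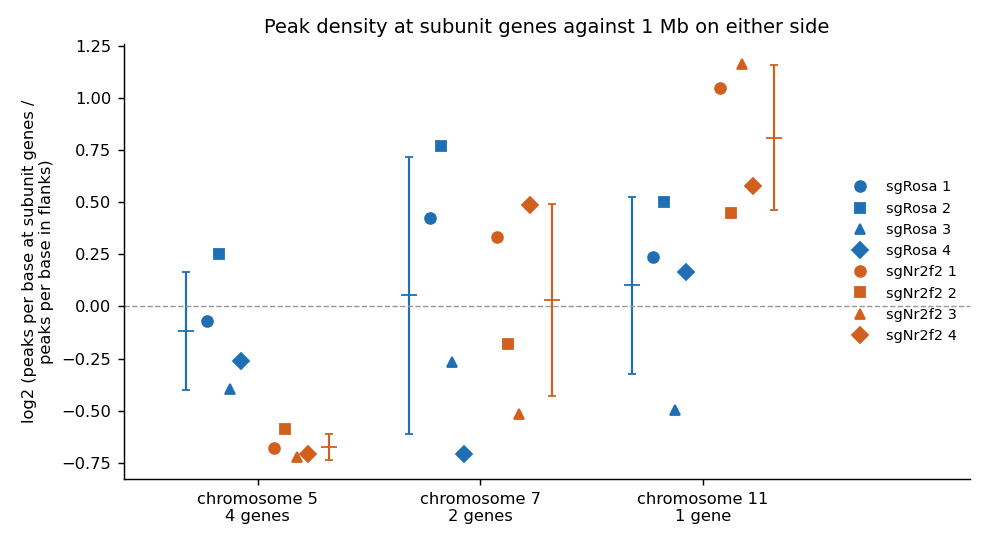
Log2 ratio of peaks per base at the subunit genes to peaks per base in the 1 Mb on either side, by chromosome and library (points), with group means and SD (n = 4) and a dashed line at equal density. On chromosome 5 all sgNr2f2 values lie below all sgRosa values, whereas the groups overlap on chromosomes 7 and 11.

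The strength of the member peaks was given by their rank within each library, as a percentile in which 100 is the strongest. The median percentile of the member peaks was 49.7, 61.3, 52.6 and 50.3 in sgRosa and 19.6, 35.0, 70.2 and 42.4 in sgNr2f2. The sgRosa libraries lay near the middle of their lists, whereas sgNr2f2 3 and sgNr2f2 1 were the highest and the lowest of all 8. The group means were 53.5 ± 5.38 and 41.8 ± 21.2 (n = 4 each, SD), and without sgNr2f2 3 the groups did not overlap, with a difference of -21.1. How often other sets of genes separate when a library is left out was not computed. Many peaks share a −log10 p, so percentiles move in wide steps. In sgNr2f2 1, for example, peaks with a −log10 p of 3.54 had a percentile of 19.6 and those with 4.09 had 54.9. Of the 350 peaks, 13.1% had a q under 0.05. Fold enrichment at the member peaks ran from 1.99 to 4.04, with a median of 2.78, and their median width was 168 bp.

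Few positions recurred between mice. Merging overlapping intervals (at least 1 bp) gave 333 regions at the members, of which 17, or 5.11%, were found in 2 libraries and 0 in 3 or more. Over all 405543 regions of the lists, 5.13% were found in 2 or more libraries and 0.475% in 3 or more. Of the 17, 6 were shared by sgRosa libraries, 5 by sgNr2f2 libraries and 6 across the groups. By gene, 6 were in Gabrg3, 5 in Gabra5, 3 in Gabrb1, 2 in Gabrb2 and 1 in Gabra2, with none in Gabra4 or Gabrg1. Only a single pair of libraries stood behind each of these positions.

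The 12 strongest of these regions were the following. In Gabrb1, 71877888 to 71878154 was found in sgRosa 1 and sgNr2f2 2, and 71886608 to 71886822 in sgNr2f2 2 and 4. In Gabra5, 57535945 to 57536275 and 57461851 to 57462096 were found in sgRosa 1 and sgNr2f2 3, 57478868 to 57479256 in sgRosa 1 and 4, and 57514306 to 57514514 in sgRosa 3 and sgNr2f2 4. The pair sgRosa 1 and sgNr2f2 3 thus held 2 of the 4 Gabra5 regions named. In Gabrg3, 56716975 to 56717280 was found in sgNr2f2 3 and 4, near the end of the gene, and 57353926 to 57354284 in sgRosa 2 and sgNr2f2 3. Also in Gabrg3, 56849021 to 56849377 was found in sgRosa 2 and 4, 57101009 to 57101239 in sgNr2f2 1 and 4, and 57039927 to 57040299 in sgNr2f2 2 and 4. In Gabrb2, 42432889 to 42433174 was found in sgRosa 2 and 4. Their highest −log10 p per region ran from 3.73 to 6.97.

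The members differed in how much their counts varied between libraries. Variance over mean across the 8 libraries, which is about 1 for counts that vary only by chance sampling, was 4.55 for Gabrg3 and 3.05 for Gabra5. For the other 5 members it lay between 0.571 and 0.959. Among the 326 protein-coding genes with at least 80 peaks the median was 2.38, and 89.3% lay below Gabrg3. Gabrg3 (139 peaks) was the only member among these genes, which were not matched to it in mean count. The other members held 8 to 69 peaks, and no genes with such counts were set beside them. Gabrg3 and Gabra5 are neighbours, yet sgNr2f2 4 had the most peaks in Gabrg3 (28) and the fewest in Gabra5 (1).

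**Figure D4:**
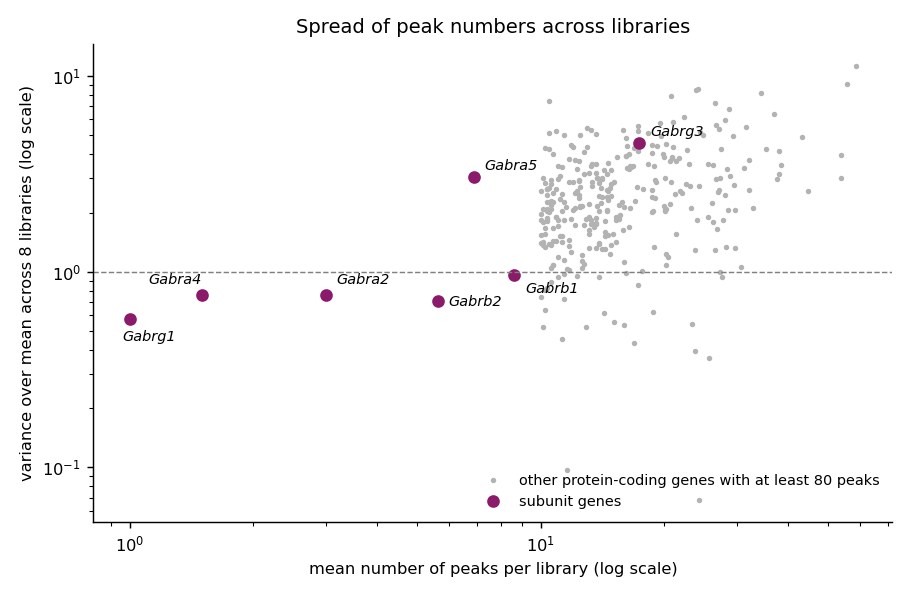
Variance over mean of the number of peaks across the 8 libraries against the mean number per library, both on log scales, for the 7 subunit genes (large labelled points) and other protein-coding genes with at least 80 peaks (small grey points), with a dashed line at 1. Gabrg3 (4.55) and Gabra5 (3.05) lie above the line and the other 5 subunit genes below it.

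The genes whose counts were most like the summed member count over the 8 libraries, among 325 other genes with at least 80 peaks, were Naaladl2 (Pearson's r 0.94), the zinc finger gene Zfp804b (0.85) and Egfem1 (0.84). The median r over the 325 genes was 0.0065. These r values describe 8 libraries that share 1 list length and carry no test. Naaladl2 held 60, 56, 18 and 24 peaks in sgRosa and 32, 35, 13 and 37 in sgNr2f2, high in the same sgRosa libraries 1 and 2 as the members.

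Of 25 other genes of GABA signalling, 14 had at least 8 peaks and 0 of them had groups that did not overlap, beside the 1.68% over all genes. Their means were lower in sgNr2f2 for 8, higher for 4 and equal for 2, with a median difference of -0.25. The 4 with the most peaks were Gabbr2, Gphn, Slc6a11 and Nsf. Gabbr2, a subunit of the metabotropic GABA-B receptor, averaged 9.5 ± 5.74 peaks in sgRosa and 8.75 ± 5.19 in sgNr2f2 (n = 4 each, SD; exact permutation p = 0.943). Gphn encodes gephyrin, the scaffold that holds receptors at inhibitory synapses, and averaged 10.75 ± 5.12 and 7.0 ± 1.41 (exact permutation p = 0.229, n = 4 each). The GABA transporter gene Slc6a11 averaged 4.75 ± 2.87 and 4.0 ± 1.41 (exact permutation p = 0.686, n = 4 each). Nsf, whose product acts in membrane fusion and receptor trafficking, averaged 4.5 ± 2.38 and 2.5 ± 4.36 (exact permutation p = 0.429, n = 4 each), and 9 of its 10 sgNr2f2 peaks were in sgNr2f2 4. Abat, which encodes the GABA-degrading enzyme GABA transaminase and is named after its values were seen, had the smallest p of the 14. It held 0, 0, 0 and 2 peaks in sgRosa and 1, 7, 4 and 5 in sgNr2f2, and the groups overlapped (0.5 ± 1.0 and 4.25 ± 2.5, n = 4 each, SD; exact permutation p = 0.0571, adjusted p = 1). Gabra3 and Gabrq, on the X chromosome, had no peak in these lists, and the X chromosome carried 0.269 to 1.81 peaks per Mb, compared with 20.5 over all chromosomes.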

How the data were processed

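Peaks were in mm10, and MACS2 2.2.9.1, HOMER 4.10, DiffBind 3.10.0, fastp 0.23.2, MultiQC 1.11, FastQC 0.11.9 and Picard are named, per the submitters' processing notes. Aligner, duplicate handling, Tn5 shift and calling options are not given in the sources used here, and lists were called per library. The authors deposited 1 narrowPeak list per library. Each line holds the authors' integer score, a fold enrichment as a ratio over background, −log10 p, −log10 q and the offset of the summit, none scaled between libraries. No deposited −log10 p was below 2.00. Depth is unknown, so values carry no counting interval. Each library was taken as 1 mouse, as the labels describe 4 mice per group.

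Intervals with several summits were reduced to the summit of highest −log10 p (3499 lines fewer). Where peaks shared the −log10 p at the cut, those kept were drawn at random (seed 1), a rule chosen after seeing the data. The files order such ties by chromosome: file order would have kept 0 of 1127 tied peaks on chromosome 5 and all 848 on chromosome 11 in sgNr2f2 2, and 0 of 477 and all 374 in sgNr2f2 3. Genes, promoters and start sites came from RefSeq tables of GRCm38.p6. No genome sequence was used here, so no peak sequence is shown.

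Group means of single genes were compared by a two-sided exact permutation test over all 70 assignments, and a gene was called when the groups did not overlap. Tests planned for sums, clusters and ratios over members served only to compare settings, and no p is given for them. The members and lists were chosen with earlier results of these data known. Named were all members, their strongest peaks, the 12 strongest recurrent regions, the 4 pathway genes with the most peaks and the 3 genes most like the members. Same-numbered libraries of the 2 groups had deviations correlated at r of -0.00267 to 0.0733 over 8088 genes. Differently numbered libraries gave r of -0.117 to 0.0855. No pairing by number was seen in these values, but sparse peak counts cannot show whether the numbers pair the mice. Counting and testing were tested on simulated data. Alternatives were each replicate left out, the replicate block, full lists, lists of 26932 peaks, order by fold, other windows and flanks, overlap in place of summits, uncollapsed lines, q under 0.05, and, chosen after seeing the data, ties in file order or weighted equally and each flank alone. The alternatives to the group comparison of density over flanks were also chosen after seeing the data. Python 3.11.15, numpy 2.4.6, pandas 2.3.3 and matplotlib 3.10.9 were used.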

Additional observations from a re-analysis of the deposited data

Results flagged for a closer look

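Gabra4 had 0 peaks in sgNr2f2 4, compared with 1 in each of the other 3 sgNr2f2 libraries, which set this library apart from its group. Chance sets a library apart in about 1 of 20 groups, and it was the only one among 30 groups examined. A step of 1 peak is the smallest that a count can show.

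The log2 ratio of peak density at the chromosome 5 members to that of their flanks was lower in every sgNr2f2 library than in any sgRosa library, with a difference of -0.56. Among single genes against their own flanks, 1.66% had such a separation in this direction. The share among sets of several genes, such as this cluster, was not computed. The averages of the 2 flanks differed between the groups in opposite directions: the one beside Gabrg1 averaged 25.25 ± 7.85 peaks in sgRosa and 15.0 ± 4.76 in sgNr2f2, and the one past Gabrb1 18.75 ± 6.18 and 29.75 ± 7.5 (SD, n = 4 each). The part of the flanks in the difference is given by the values against each alone, 0.14 and -1.24.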

How the results depend on the processing

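Of 330 recomputed values for 21 results, 273 kept their side of the threshold of 0.05 and did not reverse. These include values that moved from or to a difference of 0, as at Gabrg1, and so had no direction to keep. Of the 273, 92 were among the 98 values for single genes, and no single gene passed in the main setting. Unless a value shows otherwise, the cause of a change was not tested. The difference on chromosome 5 in log2 density over flanks (-0.56) no longer passed in the full lists (-0.51), in lists of 26932 peaks (-0.14), with flanks of 2 Mb (-0.74), or in the replicate block (-0.56), where paired values of 4 mice cannot pass. It turned to 0.14 against the lower flank alone and lay between -0.65 and -0.43 without single libraries. The difference still passed when any one sgRosa library was left out. It no longer passed when any one sgNr2f2 library was left out, although both cases have equally many assignments of the libraries. The remaining values of the groups still did not overlap there, and the difference lay between -0.59 and -0.54. The chromosome 5 ratio itself (-0.40) no longer passed in the full lists (-0.26), in lists of 26932 peaks (-0.36), with flanks of 500 kb (-0.31) or 2 Mb (-0.42), or against the lower (-0.22) or upper flank alone (-0.49).

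On chromosome 7 the ratio (0.04) turned to -0.045 in lists of 26932 peaks and -0.0045 against the upper flank, and ran from -0.061 to 0.15 without single libraries (below 0 without sgRosa 1, sgRosa 2 or sgNr2f2 4). Its group difference (-0.02) turned to 0.14 in lists of 26932 peaks, 0.0040 in gene bodies, 0.016 with flanks of 500 kb, 0.071 against the lower flank, 0.031 with ties in file order and 0.016 with ties weighted equally, and ran from -0.28 to 0.21 without single libraries. Its difference in peaks (-3.5) ran from -7.5 to 1.17, the latter without sgRosa 1. At Gabrb2 the ratio (0.46) no longer passed in the full lists (0.33), in lists of 26932 peaks (0.33), in the gene body (0.42), with flanks of 500 kb (0.68), against the upper flank (0.36) or with ties in file order (0.42), and ran from 0.35 to 0.59 without single libraries, where it passed only when sgRosa 3 was left out. Its group difference (0.71) passed in the order by fold (0.75) and turned to -0.98 in lists of 26932 peaks, where the difference in peaks also turned (-1.5).

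Chromosome 5 minus 7 (-11.2 peaks per Mb) passed in lists of 26932 peaks (-5.67) and without sgNr2f2 3 (-13.1). It ran from -13.1 to -9.16 without single libraries. Chromosome 5 minus 11 (-8.68) was -1.74 in lists of 26932 peaks and ran from -11.0 to -6.15 without single libraries. Chromosome 7 minus 11 ran from -1.09 to 4.44, the difference in median percentile (-11.7) from -21.1 to -4.29, and the difference at Gabrg3 (1.75) from -1.5 to 5.5, with -0.118 in the full lists. The difference over the 7 genes (-8) ran from -12.9 to -3.25 without single libraries. The replicate block changed no other call. With unknown depth, absence of a peak does not show closed chromatin, and 4 mice per group cannot give an exact p under 0.0286.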
